A study of Drosophila melanogaster with 12 samples.

Results

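The subject is a set of 47 transcripts, of 16637 on the array, whose levels in Drosophila melanogaster Kc cells changed little after 3 h of the hormone 20-hydroxyecdysone (20HE) and were strongly lower after 48 h. Kc cells are a line derived from embryos. The 6 groups of 2 biological replicates were cells given RNAi against beta-galactosidase (Bgal), the control knockdown, or against the insulator protein CP190, each with no hormone (0 h), with 20HE for 3 h or with 20HE for 48 h. All groups therefore carried an RNAi treatment, and each arm has its own 0 h cells. The extraction protocol names Mbn2 cells beside Kc cells, while every title names Kc.

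The members were chosen on the measured values. The level of a transcript in a group is the mean of the log2 intensities of its 2 arrays. The 3 h and 48 h differences from 0 h were averaged over both RNAi arms. A member had a 48 h difference of -1.5 or less, a 3 h difference above -0.4 and below 0.5, and its highest group over 2-fold above the random-sequence control spot. Of 64 transcripts that met the 48 h limit, 15 were left out because they were already lower at 3 h and 2 because they were higher at 3 h. The least changed member at 48 h was at -1.51 on the log2 scale, and the nearest transcript outside was at -1.48. At 3 h the members ran from -0.36 to 0.36, and the nearest transcripts outside were at -0.43 and 0.66. The level limit removed 0 transcripts, since the dimmest member reached 2.58 above the control spot on the log2 scale in its highest group. These hormone differences are a description and carry no test.

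20HE is the active moulting hormone of insects. It binds a nuclear receptor made of EcR and Ultraspiracle, and a short wave of early genes, many of them transcription factors, precedes the late genes that rise or fall hours to days afterwards. Kc cells respond to the hormone by ceasing to divide and changing shape. CP190 is a zinc-finger and BTB-domain protein brought to chromatin by DNA-binding insulator proteins, and it is found at domain borders and at many promoters of active genes. Insulators limit which enhancers can act on which promoters.

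The array names its features by FlyBase transcript identifier, and the table does not pair them with genes. The RefSeq gene table listed 44 of the identifiers, and 0 of the 47 members were among them. The members are therefore given by identifier, with no gene role. For the same reason the cell line could not be checked by its markers, and the loss of CP190 RNA was not analysed here. Among the 47 there were 5 runs of consecutive identifiers, holding 13 members, so the set falls into 39 runs. The longest run, FBtr0077203 to FBtr0077207, holds 5 members whose log2 levels correlated by 0.997 to 0.999 over the 12 arrays. In 3 of the 4 pairs, FBtr0071690 with FBtr0071691, FBtr0073825 with FBtr0073826 and FBtr0079456 with FBtr0079457, the correlation was 0.998, 0.998 and 0.997. In the pair FBtr0091706 and FBtr0091707 it was 0.965, and the levels differed by up to 1.44 on the log2 scale on an array. These runs were noticed after the values were seen. Whether their members share probes or a gene is not given in the sources used here, so members of a run are not counted as independent.

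Replicate arrays correlated across all transcripts by 0.994 to 0.997, and the control spot read 413 to 425 on every array. The SD between the replicates of a member in a group had a median of 0.11 on the log2 scale, and its highest value was 0.71. Most members were well expressed before the hormone. In control cells their mean intensities at 0 h ran from 1328 to 36186 with a median of 4841, and 14 were above 10000. At 3 h the median was 4083, and at 48 h it was 1120, with a range of 550.3 to 11570. In CP190 RNAi cells the medians were 6939 at 0 h, 6761 at 3 h and 1415 at 48 h. In bulk RNA, less RNA in every cell and loss of the RNA from some of the cells cannot be told apart.

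**Figure D1:**
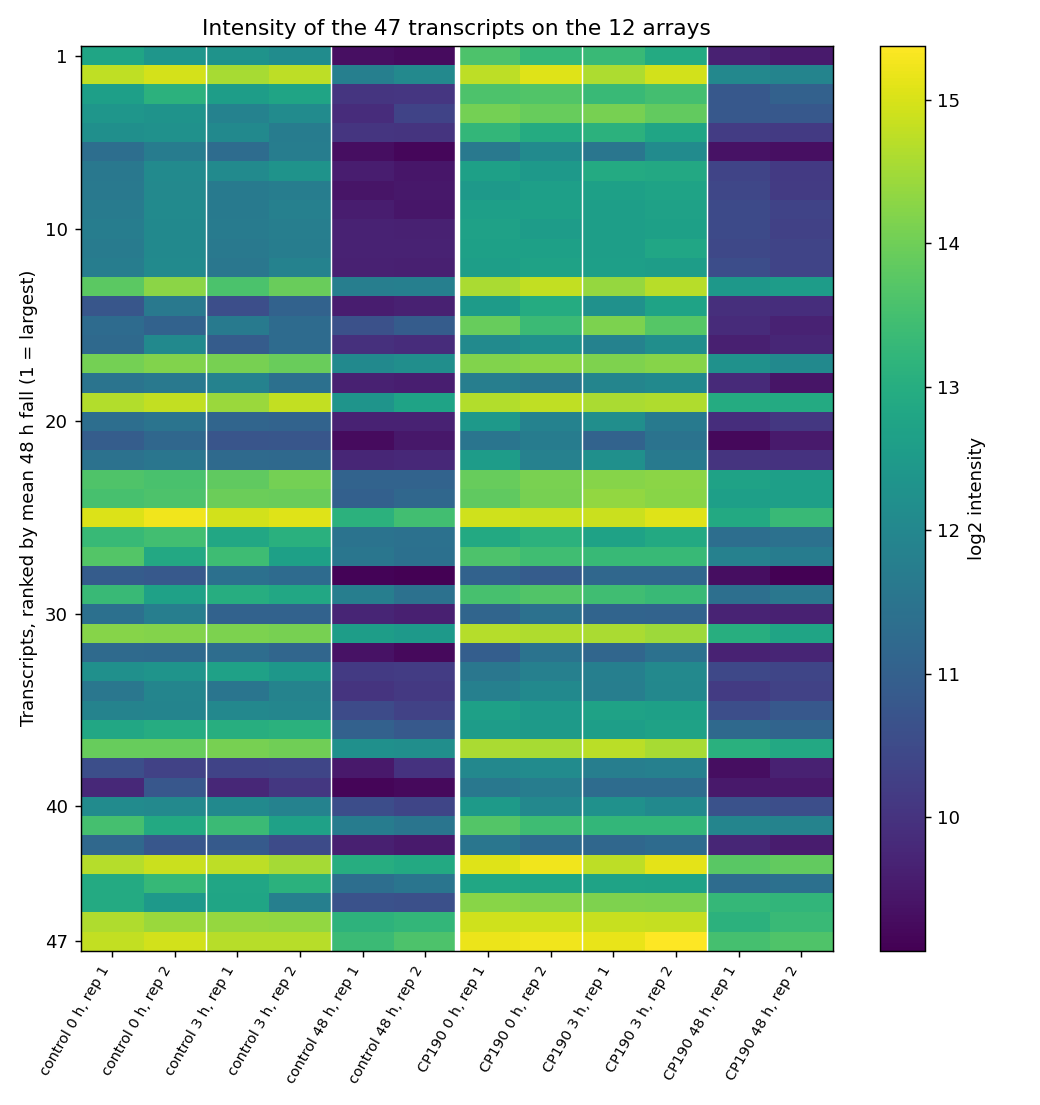
Log2 intensity of the 47 transcripts (rows, ranked by the mean 48 h fall over both arms) on each of the 12 arrays (columns, 2 replicates per group; the thick white line separates control from CP190 RNAi). The 4 columns at 48 h are darker than the 0 h and 3 h columns of their own arm in every row.

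For each of the 47, both 48 h arrays lay below both 0 h arrays and below both 3 h arrays of the same arm, in control and in CP190 cells alike. The choice of members largely fixes this in advance, so it is no separate result, and the share of all transcripts is not given. The median member kept 26.7% of its 0 h level at 48 h in control cells and 24.1% in CP190 cells. The lowest group of a member was 48 h of control cells for 39 members and 48 h of CP190 cells for 8. The highest group was CP190 0 h for 26 members, CP190 3 h for 13, control 0 h for 5 and control 3 h for 3. That the lowest group is at 48 h and the highest at 0 h or 3 h is largely fixed by the choice too. The shares of all transcripts are not given for these counts. At 3 h, 30 members stood below 0 h in both arms and 10 above it in both arms, all inside the limits that define the set.

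FBtr0082551 had the largest fall. Its control replicates read 6964 and 5317 at 0 h, 5080 and 4511 at 3 h, and 644 and 611 at 48 h. In CP190 cells they read 12494 and 9832, then 10399 and 7831, then 802 and 733. The 48 h arrays are far below all others in both arms, and one of the control pair lies within 1.5-fold of the control spot. The fall was 9.70-fold in control cells and 14.5-fold in CP190 cells, which had the higher start. The part of background in either fall was not tested.

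FBtr0073376 fell from a high level without reaching background. Its control replicates read 28023 and 31950 at 0 h, 23898 and 27473 at 3 h, and 3573 and 4231 at 48 h. Its CP190 replicates read 27369 and 34422, then 24891 and 31472, then 4126 and 3853. The arms overlap at all 3 times, and the fall was 7.70-fold in each. FBtr0079806, the member with the highest control intensity at 0 h, went from 33899 and 38473 at 0 h to 8859 and 11303 at 48 h. In CP190 cells it went from 31140 and 29947 to 7683 and 10474. The arms do not overlap at 0 h and overlap at 48 h.

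The end point of the fall differed among members. At 48 h, 18 members were still over 4-fold above the control spot in both arms. At the other end, 6 members had a control array within 1.5-fold of it, and 2 of these also had a CP190 array there, while 0 members came that close at 0 h or 3 h. Subtracting the control spot from each array made the median 48 h difference -2.39 in control cells and -2.35 in CP190 cells, against -1.90 and -2.05 as deposited.

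The hormone falls were compared between the arms next. The limit of -1.5 applies to the average of the arms, so a transcript could enter the set through 1 arm alone. It was met by 40 members in control cells, by 40 in CP190 cells and by 33 in both. The set is therefore not blind to differences between the arms, and counts of such differences are also given for the 33. Those 33 are not blind either, since they were chosen on the same 0 h and 48 h values. Their limit also leaves out members with a small fall in 1 arm. The share of all transcripts under that limit is not given. FBtr0084647 and FBtr0075839 had the smallest falls in control cells, with log2 differences of -0.40 and -0.70 there and -3.87 and -2.58 in CP190 cells, and entered the set through their CP190 fall. FBtr0078781 had the smallest fall in CP190 cells, -0.99 on the log2 scale, and -2.07 in control cells.

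**Figure D2:**
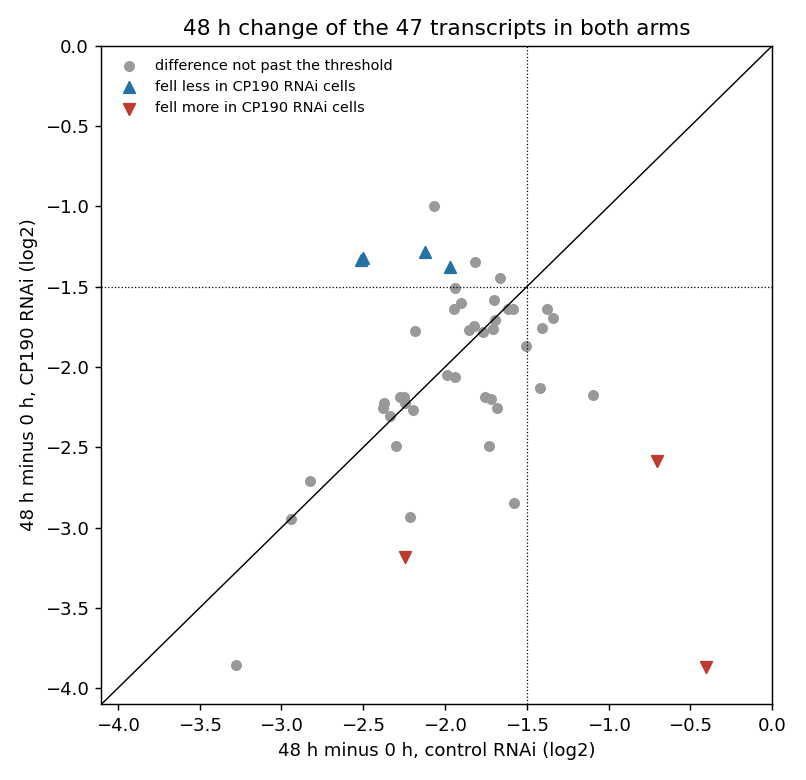
Difference of 48 h from 0 h on the log2 scale in control RNAi cells (x axis) and CP190 RNAi cells (y axis) for the 47 transcripts. The diagonal marks equal falls, dotted lines mark -1.5, and coloured triangles mark the 4 members that fell less and the 3 that fell more in CP190 cells by the test of the difference.

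The effect of CP190 RNAi was tested with limma, a linear model over all transcripts with 6 group means and 12 arrays. P-values were two-sided, adjusted by Benjamini-Hochberg over the 16637 transcripts, with a threshold of 0.05. Before the hormone, 24 of the 47 members were higher in CP190 cells, 51.1% of the set, against 4.45% of all transcripts. Among the 9879 transcripts that pass the same level limit as the members, 6.82% were higher and 4.68% lower. Another 2 members were lower, 4.26%, against 2.89% of all transcripts, and 21 did not pass. The median difference of the members was 0.42 on the log2 scale, against -0.01 for all transcripts and -0.04 for those above the level limit. Both CP190 arrays lay above both control arrays for 30 members, and below them for 5, against 22.3% and 23.9% of all transcripts.

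At 3 h, 23 members were higher and 2 lower, where 4.33% and 1.88% of all transcripts were, and 6.68% and 2.99% of those above the level limit. The median member difference was 0.54. Both CP190 arrays lay above both control arrays for 32 members and below them for 4, against 21.6% and 26.1% of all transcripts. Of the 24 members higher at 0 h, 21 were also higher at 3 h. Counting each run of consecutive identifiers once left 19 of 39 runs with a higher member at either time.

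These counts depend on the set's rule and on background. A transcript raised by CP190 RNAi at 0 h and low in both arms at 48 h has a larger average fall, so membership is not blind to the 0 h comparison. Among the 40 members that met -1.5 in control cells alone, 20 were higher at 0 h and 18 at 3 h. Among the 33 that met it in both arms, 17 were higher and 0 lower at either time. After subtraction of the control spot the counts of higher members were 11 at 0 h and 15 at 3 h. All 24 and all 23 kept their sign, and the median SE of a member went from 0.14 to 0.18. With only the arrays compared in the fit, 13 were higher at 0 h and 25 at 3 h. The share of all transcripts called is not given for the subtraction, for this fit or for fits that left out an array. A changed count there may therefore not concern the members alone. Of the 24 and 23, 15 and 14 passed in each of 12 fits that left out an array.

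**Figure D3:**
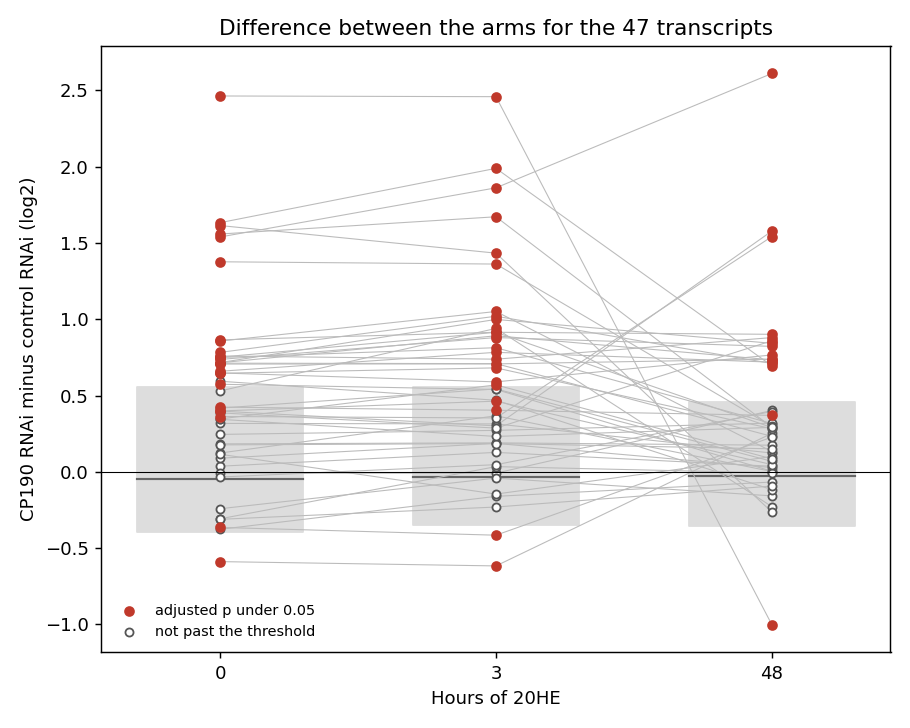
CP190 RNAi minus control RNAi on the log2 scale at 0, 3 and 48 h of 20HE for the 47 transcripts, joined by lines. Filled points have a limma adjusted p under 0.05; the grey boxes span the 5th to 95th percentile of the 9879 transcripts above the level limit, with their median as a line. Filled points above 0 number 24, 23 and 15.

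FBtr0084647, which met the limit in CP190 cells only, is given as a description with no test. Its replicates read 2469 and 2139 in control cells and 15324 and 10490 in CP190 cells at 0 h, a log2 difference of 2.46 ± 0.19 (limma SE). At 3 h they read 3212 and 2496 against 17953 and 13509, a difference of 2.46. All CP190 arrays at these times lie above all control arrays.

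FBtr0085071, which met the limit in both arms, read 5358 and 5108 in control cells against 17048 and 15450 at 0 h, a log2 difference of 1.63 ± 0.14 (limma SE). At 3 h it read 3761 and 4405 against 17473 and 14950, a difference of 1.99. FBtr0085071 was also chosen on its 0 h and 3 h values, so these differences are a description. Its arms do not overlap at either time. The calls of FBtr0085071 at 0 h and 3 h held in each of the 19 alternatives run for the comparison.

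The 2 members lower in CP190 cells, FBtr0071253 and FBtr0087207, met the limit in control cells only, so their differences are a description. FBtr0071253 read 4820 and 5199 in control cells and 3054 and 3628 in CP190 cells at 0 h, a log2 difference of -0.59 ± 0.12 (limma SE). At 3 h its difference was -0.62. FBtr0087207 read 7345 and 8003 against 6055 and 5858 at 0 h, a difference of -0.36, and at 3 h it had -0.42. Neither transcript overlapped between the arms at 0 h. The count of 2 at 0 h was 0 without control 0 h replicate 2 or CP190 0 h replicate 1, 1 without CP190 0 h replicate 2 and 4 without control 0 h replicate 1. At 3 h it was 0 without control 3 h replicate 1 or CP190 3 h replicate 1, and 1 without control 3 h replicate 2 or CP190 3 h replicate 2.

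After 48 h of 20HE, CP190 cells were higher for 15 members, 31.9%, against 3.17% of all transcripts and 4.79% of those above the level limit. They were lower for 1 member, against 2.02% and 3.18%. Both CP190 arrays lay above both control arrays for 31 members and below them for 3, against 22.8% and 24.3% of all transcripts. Counted by runs, 10 of 39 were higher. The median member difference was 0.28, and the levels of 32 members lay within 1.5-fold of each other in the arms. The share of all transcripts within 1.5-fold is not given. For those above the level limit, the 5th to 95th percentile of the difference ran from -0.35 to 0.46, inside 1.5-fold. Levels within 1.5-fold were thus more common among those transcripts than among the members. Of the 24 members higher at 0 h, 12 were higher at 3 h and 48 h as well, and 9 did not pass at 48 h. Among the 33 members that met the limit in both arms, 11 were higher and 0 lower. Of the 15, 11 passed in each of the 12 fits that left out an array.

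FBtr0078781 had the largest difference at 48 h. Its control replicates read 7718 and 5685 at 0 h, 7068 and 3522 at 3 h, and 1605 and 1560 at 48 h. Its CP190 replicates read 19552 and 18962, then 18392 and 17881, then 9848 and 9492. The arms do not overlap at any time, while the control replicates at 3 h lie far apart. The log2 difference at 48 h was 2.61 ± 0.24 (6.11-fold, limma SE), given as a description. FBtr0078781 was the 1 member whose 48 h level in CP190 cells stayed above its 0 h level in control cells.

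FBtr0079456 differed less between the arms before the late fall than after it. It read 12844 and 12084 in control cells and 15364 and 17544 in CP190 cells at 0 h, a log2 difference of 0.40. The arms do not overlap there, and it was among the members called higher at 0 h. At 3 h the difference was 0.30 and did not pass. At 48 h it read 2180 and 2176 against 6716 and 6301, a difference of 1.58 ± 0.097 (2.99-fold, limma SE). Over the 19 alternatives the 48 h difference ran from 2.58 to 2.99 for FBtr0078781 and from 1.53 to 1.79 for FBtr0079456. Both transcripts met the limit in control cells only, so these differences are a description with no test.

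FBtr0084647 was the member lower in CP190 cells at 48 h, with the opposite order of the arms from 0 h. Its replicates read 1580 and 1917 in control cells and 916 and 824 in CP190 cells, a log2 difference of -1.002 ± 0.19 (limma SE), also a description. It makes up the count of 1 lower member at 48 h, although it entered the set through its CP190 fall. That call was lost without control 48 h replicate 2 (-0.86) and without CP190 48 h replicate 2 (-0.93). FBtr0084647 is also outside the set when the 48 h limit is applied to control cells alone.

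**Figure D4:**
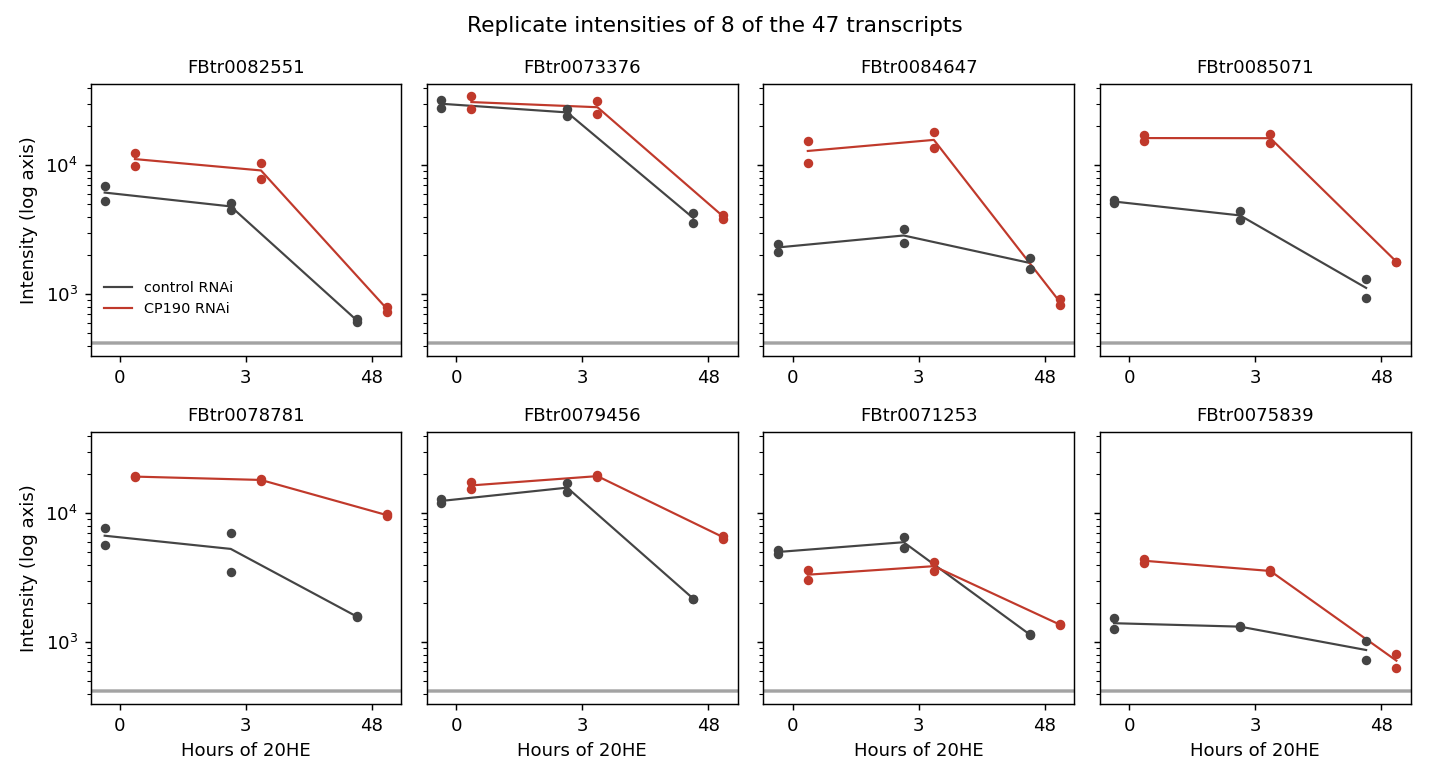
Intensity of 8 members on a log axis at 0, 3 and 48 h of 20HE (points are replicates, lines join group means) in control RNAi cells (dark) and CP190 RNAi cells (red); the grey band is the random-sequence control spot at 413 to 425. FBtr0073376 overlaps between the arms, FBtr0078781 stays apart at all times, and FBtr0084647 changes order at 48 h.

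Averaged over the 3 times, 29 members were higher in CP190 cells, 61.7% of the set, against 10% of all transcripts and 14.5% of those above the level limit. Among the 33 that met the limit in both arms, 19 were higher and 1 lower. In the whole set 3 were lower, where 9.86% of all transcripts and 15.8% of those above the level limit were, and 15 did not pass. The median member difference was 0.41, against -0.01 for all transcripts. FBtr0078781 led with a log2 difference of 2.00 ± 0.14, and FBtr0085071 followed with 1.44 ± 0.083 (limma SE). FBtr0078781 met the limit in control cells only and FBtr0085071 in both arms. The mean uses the 0 h and 48 h values that chose them, so these differences are a description.

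The 3 lower members were FBtr0071253 (-0.32), FBtr0070907 (-0.20) and FBtr0087207 (-0.18). FBtr0071253 and FBtr0087207 met the limit in control cells only. All 3 were chosen on the same 0 h and 48 h values, so their differences are a description. FBtr0071253 passed in all 19 alternatives. The call of FBtr0070907 was lost without control 0 h replicate 2, control 3 h replicate 2, either control 48 h array, CP190 0 h replicate 1, CP190 3 h replicate 1 or either CP190 48 h array (adjusted p of 0.0626 to 0.129). That of FBtr0087207 was lost without control 0 h replicate 2, control 3 h replicate 2, control 48 h replicate 1, either CP190 0 h array, CP190 3 h replicate 1 or CP190 48 h replicate 2 (adjusted p of 0.0538 to 0.0882). The count of 3 became 1 without control 0 h replicate 2, control 3 h replicate 2, control 48 h replicate 1, CP190 0 h replicate 1, CP190 3 h replicate 1 or CP190 48 h replicate 2.

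Whether the response to 20HE differed between the arms was tested by subtracting the control response from that in CP190 cells. For the 3 h response limma called 0 of the 47, with 0 at an unadjusted p under 0.05, and 0 with the replicate number as a block. Across all transcripts 0% were called. The member differences ran from -0.26 to 0.41 on the log2 scale. At 48 h, 4 members fell less in CP190 cells, where 0.823% of all transcripts, and 1.37% of those above the level limit, had a higher response. Another 3 fell more, where 1.36% and 2.13% had a lower one. The other 40 did not pass. The median difference was -0.01 on the log2 scale, and 26 of the 47 had the larger fall in CP190 cells. With the replicate number as a block, 5 fell less and 8 fell more, where 1.73% and 2.63% of all transcripts had a higher or lower response. All 4 that fell less met the limit in control cells only, and 2 of the 3 that fell more met it in CP190 cells only. Among the 33 members that met it in both arms, 0 fell less and 1 fell more, though that limit itself leaves out members with a small fall in 1 arm. The other 6 of the 7 thus belong to members whose entry into the set rested on 1 arm.

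FBtr0079456 and its neighbour FBtr0079457 fell less in CP190 cells. They, FBtr0071253 and FBtr0087207 entered the set through the control arm, so their differences of responses are a description. FBtr0079456 changed by -2.52 from 0 h to 48 h in the control arm and by -1.34 in the CP190 arm, which differed by 1.18 ± 0.14 (limma SE). FBtr0079457 had -2.50 and -1.32, differing by 1.18. Over the 19 alternatives these 2 differences ran from 1.08 to 1.38 and from 1.06 to 1.38. FBtr0071253, with -2.12 and -1.28, differed by 0.84 ± 0.17. FBtr0087207, with -1.97 and -1.38, differed by 0.59 ± 0.13.

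Over the 19 alternatives the difference ran from 0.72 to 1.03 for FBtr0071253 and from 0.50 to 0.68 for FBtr0087207. The limma call of FBtr0071253 was lost without control 0 h replicate 2 or either control 48 h array. It was also lost without CP190 0 h replicate 1 or either CP190 48 h array. That of FBtr0087207 was lost without any single array except control 0 h replicate 1 and control 48 h replicate 1. Changes of processing included, the call of FBtr0071253 was lost in 7 of the 19 alternatives and that of FBtr0087207 in 13. The 4 that fell less became 2 without control 0 h replicate 2, control 48 h replicate 2, CP190 0 h replicate 1 or either CP190 48 h array, and 2 after subtraction of the control spot.

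FBtr0084647 and FBtr0075839 entered the set through the CP190 arm, so their differences of responses are a description. That of FBtr0084647 was -3.47 ± 0.27 on the log2 scale (limma SE), with a 48 h level 14.6-fold below 0 h in CP190 cells and 1.32-fold below it in control cells. FBtr0075839 read 1544 and 1267 at 0 h and 726 and 1016 at 48 h in control cells, and 4110 and 4460 and then 634 and 806 in CP190 cells. The arms do not overlap at 0 h and overlap at 48 h. Its responses differed by -1.88 ± 0.22 (limma SE), and by -2.54 ± 0.52 after subtraction of the control spot, where it no longer passed.

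FBtr0085071 was the 1 that fell more and met the limit in both arms. Its 48 h difference from 0 h was -2.24 in the control arm and -3.18 in the CP190 arm on the log2 scale. Its responses differed by -0.94 ± 0.20 (limma SE). FBtr0085071 too was chosen on these 0 h and 48 h values, so this is a description. Its limma call was lost in 9 of the 19 alternatives. Among these were the fits without either control 0 h array, control 48 h replicate 2, either CP190 0 h array or either CP190 48 h array. Subtraction of the control spot was another (-0.70, limma adjusted p = 0.589). The 3 members that fell more were all higher in CP190 cells at 0 h, and both comparisons use the same 0 h arrays. The count of 3 became 5 without control 0 h replicate 2, 1 after subtraction of the control spot and 1 among the members that met -1.5 in control cells alone.

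The run FBtr0077203 to FBtr0077207, singled out after its values were seen, kept its order between the arms throughout. FBtr0077207, the last of the run, read 3288.5 and 4291 at 0 h, 3166 and 3450 at 3 h, and 819.0 and 824 at 48 h in control cells. In CP190 cells it read 6464 and 6463, then 6258 and 7179, then 1381 and 1309. The CP190 arrays lie above the control arrays at each time. Its log2 differences between the arms were 0.78, 1.02 and 0.71 at 0, 3 and 48 h, given as a description. Its fall was 4.57-fold in control cells and 4.81-fold in CP190 cells.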

How the data were processed

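Per the labels' protocols, Cy3-labelled total RNA from 12 Kc cell samples was measured on single-colour NimbleGen arrays. The deposited values are intensity on a linear scale, processed by the authors with RMA per the submitters' processing notes; no version, annotation release or build is given in the sources used here. Equalised array distributions can hide a change common to most transcripts. Log2 was taken with no pseudocount or filter. The model used limma 3.58.1 (R 4.3.3) with 6 residual degrees of freedom and was tested on simulated data. Precision is limited by the number of arrays.

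The members and lists were chosen with earlier results of these data known. The rule for identifiers took the 2 largest 48 h falls, the 2 highest 0 h levels in control cells and, per comparison between the arms, the 2 largest called differences each way. All were named where 5 or fewer passed. No gene list or marker could be looked up.

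The labels give each group the same pair of replicate numbers, and differences between replicate 1 and 2 correlated by 0.147 to 0.608 across transcripts over the 15 pairs of groups. The numbers therefore appear to pair the samples, though the labels do not say what they share. The main model was set without the block, and counts with the block are given where they differ by over 1.5-fold. Short of that limit, the block gave 30 higher and 3 lower members at 0 h, 28 and 2 at 3 h, and 16 and 1 at 48 h. The share of all transcripts is not given for these counts.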

Additional observations from a re-analysis of the deposited data

Results flagged for a closer look

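The 48 h responses of 7 members passed the limma threshold for a difference between the RNAi arms, 4 with a higher response in CP190 cells and 3 with a lower one. On the log2 scale the differences were 1.18 for FBtr0079456, 1.18 for FBtr0079457, 0.84 for FBtr0071253 and 0.59 for FBtr0087207. They were -3.47 for FBtr0084647, -1.88 for FBtr0075839 and -0.94 for FBtr0085071. FBtr0079456 and FBtr0079457 have consecutive identifiers and near-equal levels, so they may be 1 measurement. All but FBtr0085071 met the 48 h limit in 1 arm only, so their differences draw on the values that chose them and are a description. That of FBtr0085071 also draws on the 0 h and 48 h values that chose it. Among the 33 members that met it in both arms 0 had a higher response and 1 a lower one, though that limit leaves out members with a small fall in 1 arm. After subtraction of the control spot 2 higher and 1 lower differences passed. With the replicate number as a block 5 and 8 passed. The part of background in these differences was not tested.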

How the results depend on the processing

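The set itself changed size with background: after subtracting the control spot (floor of 50 intensity units) the rule gave 91 transcripts, of which 43 were among the 47. It gave 45 with control cells alone (36 shared), 63 with CP190 cells alone (40), 50 and 45 with replicate 1 or 2 alone (45 and 38), 52 after centring each array (47) and 47 after quantile normalisation (47). Subtraction also gave 11 higher and 0 lower members at 0 h, 15 and 0 at 3 h, 1 lower on average, and 2 higher and 1 lower differences of 48 h responses. The median SE of a member was larger after it. With only the arrays compared, 13 were higher and 1 lower at 0 h, while 25 were higher at 3 h and 15 at 48 h. Quantile normalisation gave 1 lower at 0 h, and a trended robust prior gave 1 lower at 0 h and 1 on average; the cause was not tested. With the replicate block, 8 members fell more in CP190 cells, and no other count of members moved by over 1.5-fold. Among members that met -1.5 in control cells alone (added after seeing the data), 0 were lower at 48 h and 1 fell more in CP190 cells. Among the 33 that met it in both arms (also added), 0 were lower at 0, 3 or 48 h, 19 were higher and 1 lower on average, 0 fell less and 1 fell more. Leaving out each of the 12 arrays in turn gave 0 to 4 lower members at 0 h, 0 to 2 at 3 h, 0 to 1 at 48 h and 1 to 4 on average. It gave 2 to 4 members that fell less and 2 to 5 that fell more in CP190 cells. Higher members stayed at 17 to 24 at 0 h, 17 to 25 at 3 h, 11 to 14 at 48 h and 27 to 32 on average. Alternatives that centred each array, left out dim transcripts, or counted each run of identifiers once (added after seeing the data), moved no count by over 1.5-fold. Shares of all transcripts are given only for the main fit and, with the block, for the differences of responses. Moved counts in the other alternatives may therefore not concern the members alone.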
